A study of Mus musculus with 20 samples.

Results

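The genes described here are the semaphorins of classes 3 to 7, the plexins and the neuropilins: every gene of the deposited annotation whose symbol is Sema3 to Sema7 followed by a letter from a to g, a plexin of family a, b, c or d, or Nrp1 or Nrp2. There were 31 such genes among the 32285 annotated genes. They comprised 7 secreted class 3 semaphorins, 13 membrane-bound semaphorins, 9 plexins and 2 neuropilins. The rule used symbols only and no measured value, but the family was chosen with earlier results of these data known.

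Semaphorins are secreted or membrane-bound guidance proteins, and plexins are their receptors. Secreted class 3 semaphorins mostly need a neuropilin as the ligand-binding co-receptor beside a plexin, whereas membrane-bound semaphorins generally bind plexins directly. Plexins act on small GTPases, MICAL enzymes and collapsin response mediator proteins to reorganize the cytoskeleton, and in the adult hippocampus these pathways are known for roles in synapse number, dendritic spines and myelinating cells. Neuropilins also bind vascular endothelial growth factors.

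Single-nucleus RNA-seq libraries were available from the hippocampus of 20 male mice aged 4.5 to 5.5 months, 1 library per mouse. The fAD mice were hemizygous for familial Alzheimer's disease transgenes driven by the mouse prion promoter, and the WT mice were their littermates on the C57BL/6J background. WT-Awake (6 mice) and fAD-Awake (3 mice) received no anesthetic, WT-GA (3 mice) and fAD-GA (4 mice) were under general anesthesia with isoflurane reduced to 1.5% for 3 h, and WT-Ketamine (2 mice) and fAD-Ketamine (2 mice) received ketamine at 150 mg/kg with xylazine at 12 mg/kg for the same 3 h. These sizes follow the sample labels, while the series' design text counts 5 and 4 awake mice and 4 and 3 isoflurane mice for WT and fAD.

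The files held 160777 nuclei with 9243992 to 25394891 UMIs (distinct captured transcripts) per mouse. Mice 1 to 4 stood apart in their mitochondrial share of UMIs, 0.939 to 1.78% against 0.0353 to 0.336% in the other mice. Pairs of libraries shared 5 to 35 nucleus barcodes, at most 0.407% of the smaller library. Prnp, whose sequence is part of the transgene cassette, did not separate the labels in full: in DG granule neurons it was 118 to 452 CPM (UMI counts scaled to an equal total per class and mouse) in fAD mice other than 11 and 17 and 30.3 to 130 CPM in WT mice other than 14. The libraries labelled fAD-GA mouse 11 and fAD-Awake mouse 17 had 55.4 and 56.0 CPM, and the library labelled WT-Awake mouse 14 had 186 CPM. Genotype therefore means genotype as labelled throughout, and the counts of calls pooled over genotype, for genotype and for the interaction are also given without these 3 mice. The calls within each labelled genotype were not repeated without them.

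Nuclei were assigned to 17 cell classes with at least 30 nuclei in 4 or more mice. The names stand for marker-defined clusters that resemble these cell types and are not the authors' annotation. In the tested classes, summed astrocyte markers reached 0.759 to 7.60% of their own-class level outside astrocytes and oligodendrocyte markers 1.00 to 3.72% outside oligodendrocytes, so a gene at a few percent of its highest class was not read as expressed there. Levels are in CPM of all UMIs of a class in a mouse. Since UMIs from nuclei scale with priming inside introns as well as with transcript number, levels were compared between classes for 1 gene and never between genes. The median gene span was 40.2 kb for the 31 genes and 24.7 kb for the 16739 genes tested.

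All 31 genes reached a mean of 10 CPM in at least 1 class, and 6 did so in every class. Some of these means were only a few percent of the highest and are not read as expression. Nrp1, for example, had 18.3 CPM in oligodendrocytes against 563 CPM in CA3 pyramidal neurons. For 7 genes the range over mice in the highest class did not overlap the range in the next class. Neither count was made over all genes, so they do not set these genes apart. These levels are a description without a test.

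**Figure D1:**
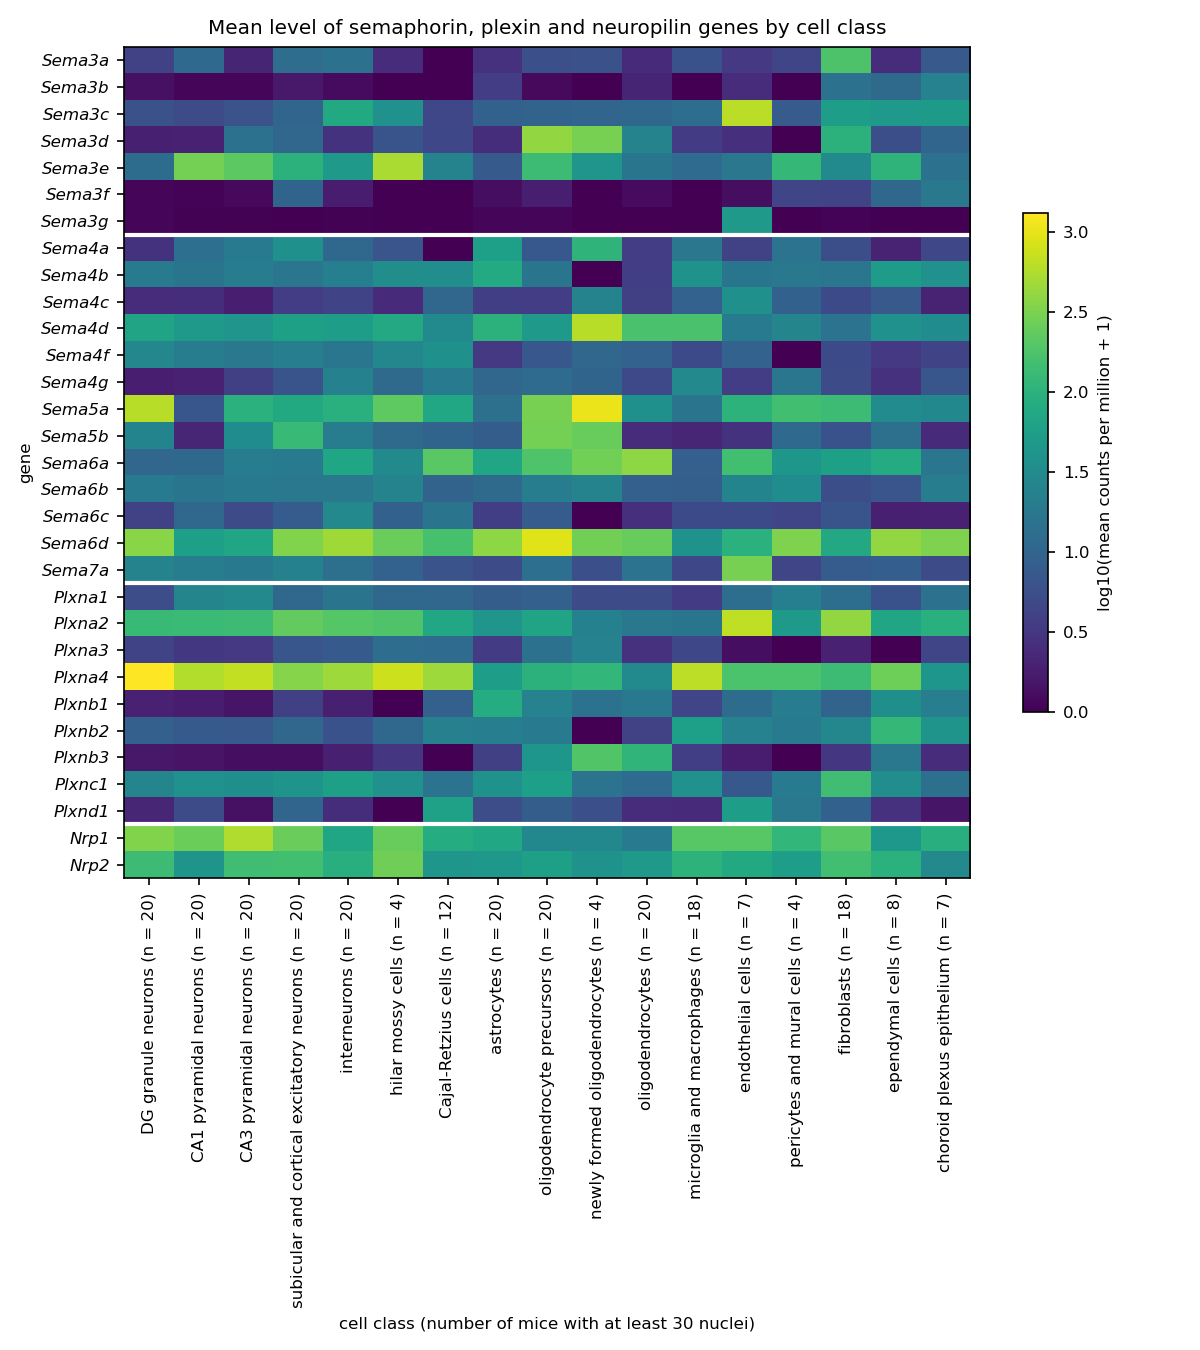
Mean level of each of the 31 genes (vertical axis) in 17 cell classes (horizontal axis, with the number of mice), as log10 of mean CPM plus 1, with white lines between secreted semaphorins, membrane-bound semaphorins, plexins and neuropilins. Sema3g is bright in endothelial cells alone (45.6 CPM), Sema6d peaks in oligodendrocyte precursors (920 CPM) and Plxna4 in DG granule neurons (1308 CPM).

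Among the secreted ligands, Sema3g was the most restricted. It reached 45.6 ± 21.3 CPM (SD, n = 7 mice) in endothelial cells and at most a mean of 0.131 CPM elsewhere. Sema3c was also highest in endothelial cells, at 624 ± 181 CPM (n = 7), with 76.2 ± 25.0 CPM (n = 20) in interneurons, the next class. Sema3a, the founding repellent of the class, was highest in fibroblasts at 177 ± 60.7 CPM (n = 18) against 14.0 ± 5.36 CPM (n = 20) in interneurons. The vascular and fibroblast maxima of these 3 ligands did not overlap the next class in any mouse.

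Sema3e, a ligand that can bind Plxnd1 without a neuropilin, had its highest levels in excitatory neurons, led by hilar mossy cells at 523 ± 68.1 CPM (n = 4), above every mouse in the next class, CA1 pyramidal neurons at 295 ± 73.9 CPM (n = 20). CA3 pyramidal neurons had 216 ± 54.3 CPM and overlapped CA1. In DG granule neurons it was 11.6 ± 7.90 CPM. Sema3d was highest in oligodendrocyte precursors, 409 ± 88.5 CPM (n = 20), and newly formed oligodendrocytes, 302 ± 192 CPM (n = 4), ranges that overlapped, and lower in oligodendrocytes, 23.7 ± 11.8 CPM. Sema3b and Sema3f stayed near the detection limit, with their highest means of 22.8 ± 10.4 and 16.9 ± 9.92 CPM (n = 7) in choroid plexus epithelium.

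Several membrane-bound semaphorins peaked in the oligodendrocyte lineage. Sema6d, a ligand of Plxna1, was highest in precursors at 920 ± 169 CPM (n = 20), with interneurons next at 473 ± 76.6 CPM. Sema4d, the ligand of Plxnb1, was highest in newly formed oligodendrocytes at 609 ± 120 CPM (n = 4) and reached 166 ± 61.7 CPM (n = 18) in microglia and macrophages. Ranges did not overlap for either gene. Sema5a, a ligand of Plxnb3, was 1059 ± 351 CPM (n = 4) in newly formed oligodendrocytes and 599 ± 109 CPM (n = 20) in DG granule neurons, but 5.74 ± 3.65 CPM in CA1 pyramidal neurons. Sema5b was 293 ± 53.6 CPM in precursors and 1.17 ± 0.642 CPM in CA1 pyramidal neurons, and Sema6a was highest in oligodendrocytes at 389 ± 73.1 CPM.

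The GPI-anchored Sema7a was instead highest in endothelial cells, 303 ± 91.4 CPM (n = 7), far from the 23.6 ± 4.99 CPM (n = 20) of DG granule neurons, the next class. Sema4b was highest in astrocytes at 80.3 ± 15.0 CPM. The remaining membrane-bound members, Sema4c, Sema4f, Sema4g, Sema6b and Sema6c, had highest class means of 28.0 to 36.1 CPM, and Sema4a had 106 ± 59.9 CPM (n = 4) in newly formed oligodendrocytes.

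The plexins differed in which classes held them. Plxna4, a receptor for class 6 and, with neuropilins, class 3 ligands, was 1308 ± 249 CPM (n = 20) in DG granule neurons, 759 ± 125 CPM (n = 4) in hilar mossy cells and 29.3 ± 17.9 CPM in oligodendrocytes. Plxnb3 was nearly limited to the oligodendrocyte lineage, with 184 ± 87.9 CPM (n = 4) in newly formed oligodendrocytes, 109 ± 43.5 CPM (n = 20) in oligodendrocytes and 0.440 ± 0.515 CPM in CA1 pyramidal neurons. Plxnb1, the receptor of Sema4d, was highest in astrocytes at 83.1 ± 20.0 CPM, and Plxnb2 in ependymal cells at 117 ± 63.4 CPM (n = 8).

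Plxnc1, the receptor of Sema7a, was highest in fibroblasts with a wide spread, 145 ± 169 CPM (n = 18), over 58.0 ± 10.5 CPM in interneurons. Plxna2 was highest in endothelial cells at 654 ± 327 CPM (n = 7). Ranges of the highest and the next class overlapped for all 9 plexins. Plxna1, Plxna3 and Plxnd1 had highest class means of 28.4, 23.2 and 59.8 CPM.

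Both neuropilins had a mean of 10 CPM or more in every class, the lowest being Nrp1 in oligodendrocytes at 18.3 CPM. Nrp1, the co-receptor of Sema3a and of VEGF-A, was highest in CA3 pyramidal neurons at 563 ± 90.5 CPM, followed by DG granule neurons at 335 ± 114 CPM, CA1 pyramidal neurons at 261 ± 80.6 CPM and subicular and cortical excitatory neurons at 250 ± 107 CPM (n = 20 each). Neighbours in this order overlapped. Nrp2, the co-receptor of Sema3f, was highest in hilar mossy cells at 272 ± 73.7 CPM (n = 4) and only 39.7 ± 6.98 CPM in CA1 pyramidal neurons.

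Whether anesthesia and genotype altered these genes was then tested in the 9 classes with enough mice, with edgeR's quasi-likelihood test on UMI counts summed per mouse and Benjamini-Hochberg adjustment over all genes tested in a class (called at an adjusted p below 0.05). The isoflurane test used 16 mice, blocked by run of adjoining mouse numbers (1 to 4, 10 to 13, 14 to 17, 18 to 20 and 25 to 29), and the ketamine test used all 20 mice with a term for mice 1 to 4. WT-Awake mouse 29 was alone in its run among the 16, so it did not bear on the blocked isoflurane difference. It is nevertheless included in the awake ranges given, and its omission was close to no test of the isoflurane calls. A low-count filter left 27 of the 31 genes in the isoflurane test and 28 in the ketamine test. Sema3b, Sema3f and Sema3g passed it in no class. Differences are log2 fold changes ± SE.

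Under isoflurane, 21 of 156 tested pairs of gene and class were called against 6.33% of all pairs of any gene and class. Of these, 20 were lower under isoflurane, against 2.96% of all pairs, and 1 was higher. The calls fell on 10 genes: Nrp1 in 5 classes, Sema3e in 4, Sema6d in 3, Plxna4 and Sema6a in 2 each, and Sema3c, Sema4a, Sema4d, Plxnb3 and Nrp2 in 1 each. The median difference over the 156 pairs was -0.13, over all pairs 0.01, and 105 of the 156 were below 0. At an unadjusted p below 0.05 there were 48 pairs (30.8%, against 20.4% of all pairs). The mean difference between isoflurane and awake mice within a run of mouse numbers had the direction of the call in all 4 runs for 17 of the 21 calls, in all 3 runs with enough nuclei for Nrp1 in microglia and macrophages, and in 3 of 4 runs for the other 3. The calls came from a fit blocked by these same runs, so this agreement follows in large part from their selection. It was not counted for other genes. In run 10 to 13 the only isoflurane mouse was mouse 11, and in run 18 to 20 the only awake mouse was mouse 19. The count nevertheless rested on few mice: without mice 1 to 4 it was 3, without mice 11, 14 and 17 it was 10, and with single mice left out it was 8 (fAD-Awake mouse 2), 12 (fAD-GA mouse 4) or 13 (WT-GA mouse 3 or WT-Awake mouse 19) at the low end. The share of all pairs called fell too, to 1.42% without mice 1 to 4, to 2.39% without mice 11, 14 and 17 and, with single mice left out, to 2514 of 96522 pairs (mouse 2), 3.89% (mouse 4), 4.15% (mouse 3) and 4.54% (mouse 19).

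Under ketamine, 19 of 163 pairs were called against 8.18% of all pairs. At an unadjusted p below 0.05 there were 45 pairs (27.6%, against 24.7% of all pairs). There were 16 lower calls, against 4.2% of all pairs, and 3 higher calls. The 19 calls fell on 12 genes, 7 of which were also called under isoflurane in some class. Plxna4 and Nrp2 were called in different classes by the tests, and Nrp2 in opposite directions. As pairs of gene and class, 8 were called in both tests. Neither overlap was counted over all genes. Both tests share the awake mice. All 4 ketamine mice lay in the same run of numbers as a single awake mouse, WT-Awake mouse 29, so a comparison within the run rests on that 1 awake mouse. Relative to mouse 29 alone, 18 of the 19 calls kept their direction. Mouse 29 was itself among the fitted awake mice, and this agreement was not counted for other genes. With runs as a block 1 call was left, Nrp1 in CA1 pyramidal neurons, when 50 of 98495 pairs of any gene were called. With 1 ketamine mouse left out, 8 (mouse 27), 9 (mouse 26 or mouse 25) or 12 (mouse 28) of the 19 calls remained, and 1 further pair was called without mouse 25. Without mice 1 to 4, 10 of the 19 remained, and without mice 11, 14 and 17, 15 remained and 2 further pairs were called. The share of all pairs called fell too, to between 1.68% (without mouse 27) and 5.23% (without mouse 28) for the single omissions, to 4.74% without mice 1 to 4 and to 5.30% without mice 11, 14 and 17.

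**Figure D2:**
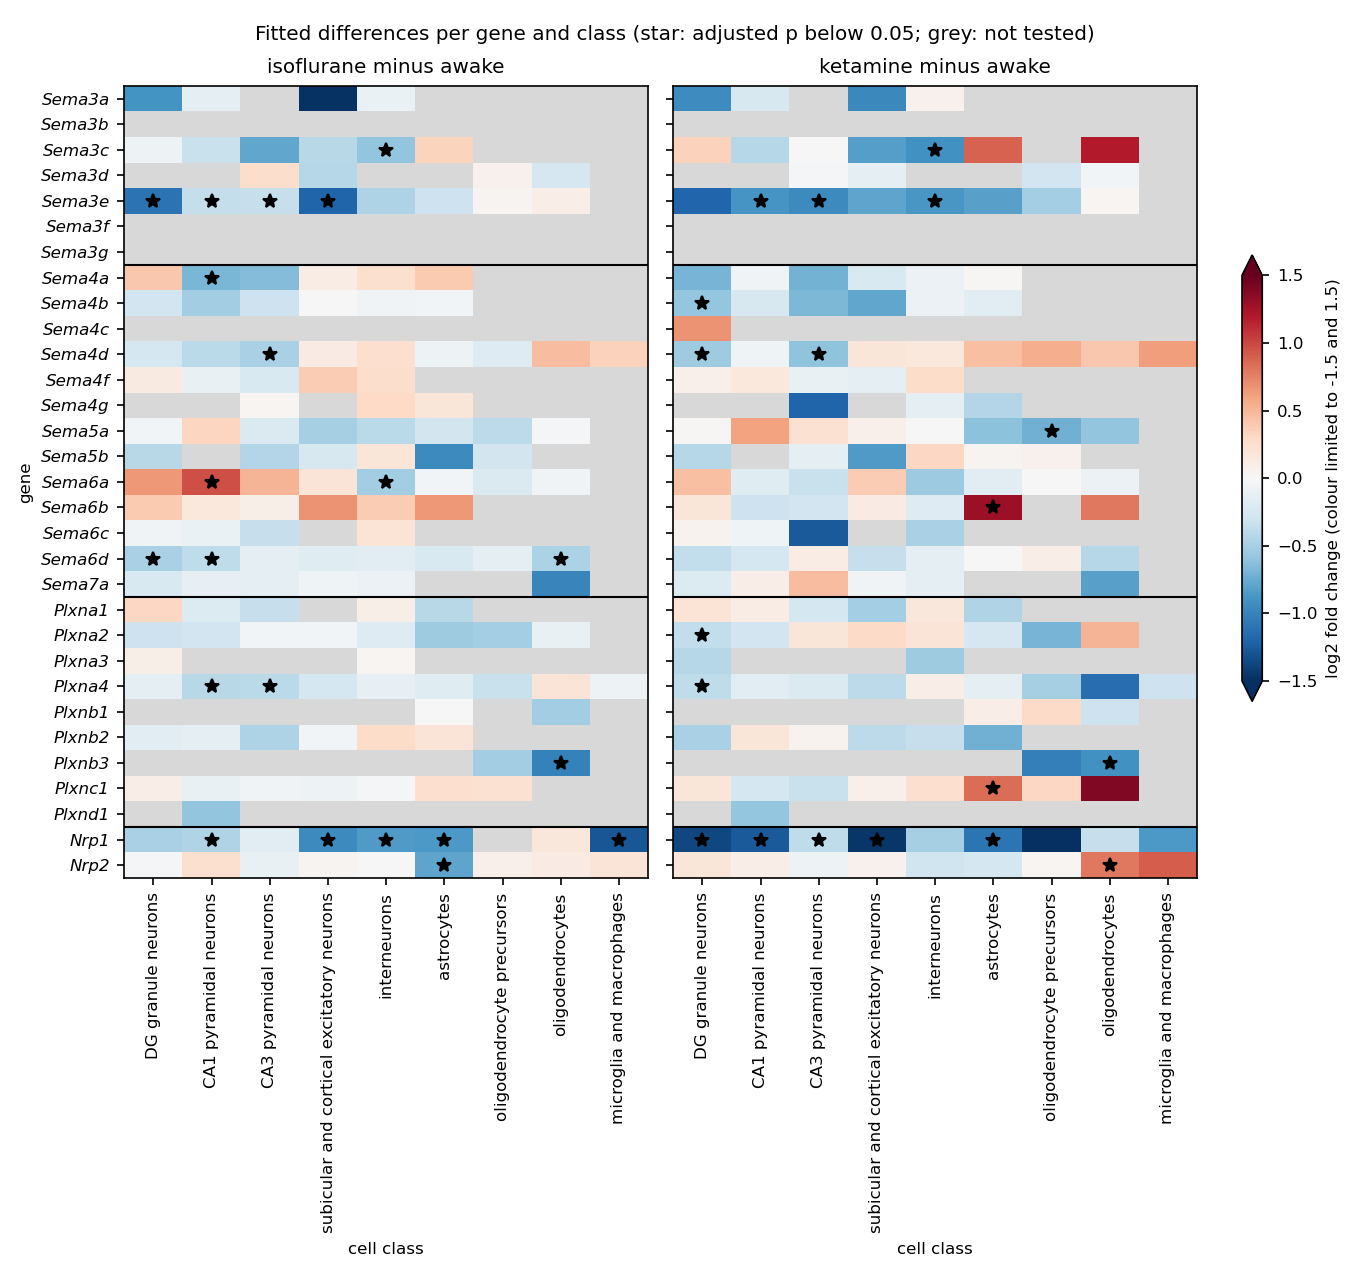
Fitted log2 fold changes of the 31 genes (vertical axis) in 9 cell classes (horizontal axis) for isoflurane minus awake (left) and ketamine minus awake (right), with stars at an adjusted p below 0.05 and grey where a gene was not tested. Blue prevails in both panels, with 20 of 21 and 16 of 19 starred pairs lower, and Nrp1 has 5 stars in each.

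Immediate-early and other activity genes described the state in the same libraries. This list was chosen with earlier results of these data known, so its shares are not an independent check. Of 62 pairs of 11 tested activity genes, 30 were called under isoflurane, all lower, and 31 of 67 were called under ketamine, 28 lower. These were 48.4% and 46.3% of the list's pairs, against 6.33% and 8.18% of all pairs. Homer1 fell by 1.04 ± 0.11 under isoflurane and by 1.48 ± 0.18 under ketamine in CA1 pyramidal neurons on the log2 scale. The 3 higher calls under ketamine were Egr1 (2.29 ± 0.60) and Fos (1.98 ± 0.61) in astrocytes and Homer1 in oligodendrocytes (0.75 ± 0.20), each lost without mice 11, 14 and 17. Between the anesthetics 13 of the 67 pairs were called (19.4%, against 4.58% of all pairs), 9 of them higher and 4 lower under ketamine. Fos, an immediate-early transcription factor, was higher by 4.76 ± 0.80 in CA3 pyramidal neurons and by 5.32 ± 0.88 in subicular and cortical excitatory neurons. Both calls were lost without mouse 28 (adjusted p = 0.0667 and 0.0972). Fos was also a leading gene of an unnamed cluster closest to fibroblasts. Of its 808 nuclei, 793 came from fAD-Ketamine mouse 25, and their part in the Fos result was not tested. The lower calls included Bdnf in CA1 pyramidal neurons (-1.45 ± 0.26, adjusted p = 0.00253). With runs as a block, 1 of the 67 pairs was called under ketamine and 0 between the anesthetics, and the ketamine difference of Homer1 in CA1 pyramidal neurons became -0.63. Without mice 1 to 4, or without mice 11, 14 and 17, the isoflurane count was 14.

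Nrp1 was the member called in most classes. In subicular and cortical excitatory neurons the awake mice had 289 to 451 CPM (median 327, n = 9), the isoflurane mice 92.8 to 278 CPM (median 188, n = 7) and the 4 ketamine mice 107, 121, 159 and 182 CPM. All 7 isoflurane and all 4 ketamine mice lay below every awake mouse. Nrp1 fell by 0.95 ± 0.15 under isoflurane (adjusted p = 0.000784, but 0.0996 without mice 1 to 4) and by 1.46 ± 0.19 under ketamine (adjusted p = 0.000105).

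In CA1 pyramidal neurons Nrp1 was 274 to 401 CPM (median 329) in awake, 174 to 276 CPM (median 250) in isoflurane and 107, 154, 162 and 171 CPM in ketamine mice. All ketamine mice and 5 of 7 isoflurane mice lay below the lowest awake mouse. The differences were -0.45 ± 0.10 for isoflurane (adjusted p = 0.00654) and -1.26 ± 0.13 for ketamine (adjusted p = 1.67e-05). Without mice 1 to 4 the isoflurane difference was -0.30 (adjusted p = 0.146), and without mice 11, 14 and 17 its adjusted p was 0.0637. Ketamine was also lower than isoflurane, by -0.77 ± 0.13 (adjusted p = 0.0025). In DG granule neurons awake mice had 320 to 494 CPM (median 429), isoflurane mice 171 to 405 CPM (median 349) and ketamine mice 164, 174, 179 and 194 CPM. There, the 4 ketamine mice lay below every awake mouse and Nrp1 fell by 1.36 ± 0.18 (adjusted p = 0.000252), while the isoflurane difference of -0.48 ± 0.15 missed the threshold (adjusted p = 0.0658). The ketamine-minus-isoflurane difference in DG granule neurons was -0.87 ± 0.17 (adjusted p = 0.0117, but 0.106 without mouse 27 and 0.0705 without mouse 25, and -0.49 with runs as a block).

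CA3 pyramidal neurons were the class with the highest Nrp1. Awake, isoflurane and ketamine mice had 499 to 808, 429 to 678 and 445 to 566 CPM, which overlapped. The ketamine difference was -0.38 ± 0.11 (adjusted p = 0.0466, lost without any 1 of 16 mice, 0.175 without mouse 28) and the isoflurane difference -0.16 ± 0.08 (adjusted p = 0.307). Differences between classes were not tested.

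Outside excitatory neurons, Nrp1 in astrocytes was 84.0 to 123 CPM (median 98.8) in awake, 38.0 to 88.6 CPM (median 49.1) in isoflurane and 33.1, 50.5, 54.7 and 55.5 CPM in ketamine mice. It fell by 0.86 ± 0.15 under isoflurane (adjusted p = 0.00174) and by 1.09 ± 0.20 under ketamine (adjusted p = 0.00211). Every anesthetized mouse but fAD-GA mouse 11 lay below every awake mouse. The isoflurane call held in all 28 alternative settings and single-mouse omissions. These include the omission of mouse 29, which did not bear on the blocked contrast.

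In microglia and macrophages Nrp1 rested on 7 to 56 UMIs per mouse. It was 179 to 484 CPM (median 276, n = 8) in awake, 74.5 to 116 CPM (median 97.1, n = 6) in isoflurane and 94.0, 195, 200 and 200 CPM in ketamine mice. The 6 isoflurane mice with enough nuclei all lay below every awake mouse, with a difference of -1.28 ± 0.24 (adjusted p = 0.00316, but 0.0627 without fAD-Awake mouse 2). The ketamine difference was -0.87 ± 0.28 (adjusted p = 0.0966). Endothelial markers, a class with high Nrp1, summed to 16.3 to 436 CPM in awake and 11.2 to 289 CPM in isoflurane microglia and macrophages, and their part in the result was not tested.

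Interneurons had 55.6 to 137 CPM (median 75.1) of Nrp1 in awake, 27.2 to 89.1 CPM (median 40.4) in isoflurane and 58.0, 59.6, 70.1 and 83.7 CPM in ketamine mice. Of the 7 isoflurane mice 6 lay below every awake mouse, and the difference was -0.85 ± 0.21 (adjusted p = 0.0226). That call was lost without any 1 of 5 mice, with an adjusted p of 0.0865 without mouse 11. The ketamine difference of -0.50 ± 0.24 was not called (adjusted p = 0.212). Across classes, Nrp1 was below 0 in 7 of 8 isoflurane tests and 9 of 9 ketamine tests, called in 5 each.

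**Figure D3:**
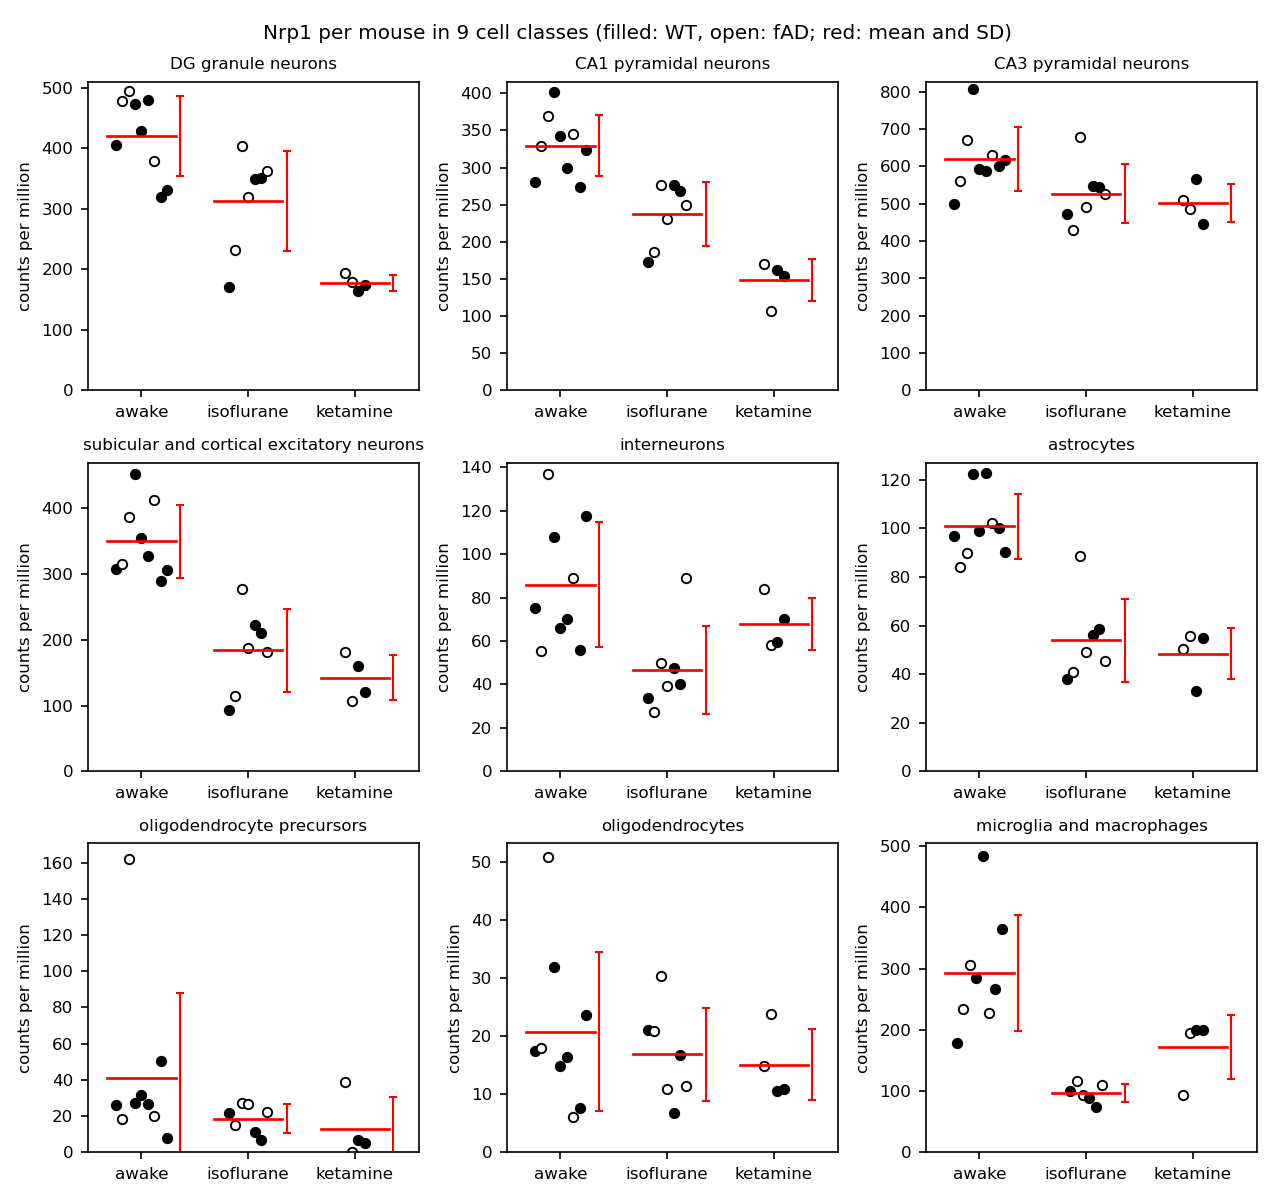
Nrp1 per mouse in CPM (vertical axes, from 0) in 9 cell classes for awake, isoflurane and ketamine mice, with filled points for WT, open points for fAD as labelled, and red lines for mean and SD. The groups separate in subicular and cortical excitatory neurons, where every awake mouse (289 to 451 CPM) lies above every isoflurane (up to 278 CPM) and ketamine mouse (up to 182 CPM), and overlap in CA3 pyramidal neurons.

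Nrp2 was called in 1 class under each anesthetic. It was called lower under isoflurane in astrocytes only, with 33.1 to 80.6 CPM (median 55.5) in awake and 14.7 to 52.6 CPM (median 26.5) in isoflurane mice. These ranges overlapped, and the difference of -0.79 ± 0.22 (adjusted p = 0.0299) was lost without any 1 of 9 mice (adjusted p up to 0.113, without mouse 2). Under ketamine it was called higher in oligodendrocytes, where awake mice had 18.9 to 59.8 CPM (median 39.9) and ketamine mice 42.7, 69.8, 84.2 and 95.7 CPM. The difference was 0.79 ± 0.22 (adjusted p = 0.0431, lost without any 1 of 12 mice, 0.19 without mouse 26), and 0.29 with runs as a block. Nrp2 has a high level in fibroblasts, 149 ± 160 CPM (n = 18), and the 9 fibroblast markers summed to 258 to 1030 CPM in ketamine oligodendrocytes against 5.78 to 343 CPM in awake ones, none of the 9 markers being absent. Their part in the result was not tested.

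The secreted ligand called most often was Sema3e. Its promoter window is printed with those of Sema6d and Plxnb3 as examples of members called lower in 2 or more tests. Only bases before the annotated gene start are shown, and the RefSeq windows of Nrp1, Sema3c and Sema4d left none there. The windows come from RefSeq on GRCm38.p6, plus strand: Sema3e chr5:14025026-14025275, Sema6d chr2:124089719-124089968 and Plxnb3 chrX:73756853-73757089. Capitals mark GC boxes (GGGCGG on either strand).
Sema3e: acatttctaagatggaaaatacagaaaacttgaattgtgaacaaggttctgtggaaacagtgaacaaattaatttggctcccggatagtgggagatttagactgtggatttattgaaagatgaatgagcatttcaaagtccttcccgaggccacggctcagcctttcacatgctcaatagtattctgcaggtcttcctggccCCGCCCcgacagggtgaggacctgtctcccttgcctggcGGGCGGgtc
Sema6d: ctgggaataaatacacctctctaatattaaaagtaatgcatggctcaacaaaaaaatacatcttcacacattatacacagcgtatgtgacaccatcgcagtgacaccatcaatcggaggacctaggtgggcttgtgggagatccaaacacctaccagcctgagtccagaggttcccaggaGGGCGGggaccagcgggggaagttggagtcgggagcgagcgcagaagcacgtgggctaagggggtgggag
Plxnb3: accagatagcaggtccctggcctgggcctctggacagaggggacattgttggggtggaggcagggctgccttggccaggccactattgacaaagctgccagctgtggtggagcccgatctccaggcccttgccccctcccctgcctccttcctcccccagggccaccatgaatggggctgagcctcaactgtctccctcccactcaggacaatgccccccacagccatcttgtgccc

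The GC box occurred 2 times in the Sema3e window, 1 time in the Sema6d window and not in the Plxnb3 window, against 32.74% of 32851 RefSeq promoter windows with at least 1. None of the 3 windows held the cAMP response element TGACGTCA (1.546% of all windows), its shorter core TGACG, which the full element contains (17.77%), the AP-1 site TGANTCA (6.749%) or a CArG box (1.467%), each searched on both strands. Of the 31 members, 26 matched an entry in the promoter table. A match or its absence describes these letters only.

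Sema3e lies on chromosome 5 at 14025276 to 14256689 (mm10, plus strand). In CA1 pyramidal neurons it was 263 to 419 CPM (median 347) in awake, 169 to 335 CPM (median 306) in isoflurane and 144, 208, 209 and 242 CPM in ketamine mice. All ketamine mice lay below every awake mouse, and the isoflurane mice overlapped both. The ketamine difference was -0.89 ± 0.15 (adjusted p = 0.000783) and the isoflurane difference -0.36 ± 0.11 (adjusted p = 0.0368), which was lost without any 1 of 8 mice (0.179 without mouse 2). Without mice 1 to 4 the isoflurane difference was -0.19 (adjusted p = 0.42).

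In CA3 pyramidal neurons Sema3e was 188 to 291 CPM (median 268) in awake, 164 to 237 CPM (median 210) in isoflurane and 106, 140, 148 and 178 CPM in ketamine mice. Again the 4 ketamine mice lay below every awake mouse. It fell by 0.96 ± 0.13 under ketamine (adjusted p = 0.000626) and by 0.35 ± 0.09 under isoflurane (adjusted p = 0.0323, lost without any 1 of 7 mice, 0.176 without mouse 2). The ketamine-minus-isoflurane differences were -0.55 ± 0.15 in CA1 (adjusted p = 0.029, lost without any 1 of 5 mice, 0.126 without mouse 28) and -0.62 ± 0.13 in CA3 pyramidal neurons (adjusted p = 0.0228, lost without any 1 of 4 mice, 0.148 without mouse 27). With runs as a block these became -0.04 and -0.17, and the ketamine-minus-awake differences -0.40 and -0.52, none of them called.

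Sema3e in subicular and cortical excitatory neurons was 65.9 to 187 CPM (median 158) in awake and 21.1 to 83.4 CPM (median 55.3) in isoflurane mice, and 5 of the 7 isoflurane mice lay below every awake mouse. The difference was -1.20 ± 0.24 (adjusted p = 0.00438, but 0.0632 without WT-GA mouse 3). DG granule neurons, with 8.70 to 35.1 CPM awake and 4.87 to 16.7 CPM under isoflurane, differed by -1.10 ± 0.25 (adjusted p = 0.0169, 0.1 without mouse 2 and 0.0594 without mouse 19) with overlapping ranges. The CA3 markers, a class with high Sema3e, summed to 331 to 575 CPM in awake and 303 to 617 CPM in isoflurane DG granule neurons, and their part in that result was not tested. The ketamine differences in these classes, -0.79 ± 0.25 and -1.19 ± 0.46, were not called (adjusted p = 0.0636 and 0.0876). In interneurons Sema3e was 44.0 to 83.2 CPM awake and 27.8, 28.6, 38.0 and 46.7 CPM under ketamine, a fall of 0.87 ± 0.24 (adjusted p = 0.0338, lost without any 1 of 6 mice, 0.168 without mouse 28).

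Sema3c, whose ligand binds both neuropilins, was called in interneurons under both anesthetics. Awake mice had 66.0 to 132 CPM (median 87.7), isoflurane mice 39.6 to 106 CPM (median 74.2) and ketamine mice 45.1, 47.4, 60.4 and 62.8 CPM. The 4 ketamine mice lay below every awake mouse while isoflurane mice overlapped. The falls were 0.91 ± 0.22 under ketamine (adjusted p = 0.0186, lost without any 1 of 3 mice, 0.114 without mouse 27, and -0.33 with runs as a block) and 0.59 ± 0.15 under isoflurane (adjusted p = 0.0251, lost without any 1 of 5 mice, 0.165 without mouse 2). Without mice 1 to 4 the isoflurane difference was -0.35 (adjusted p = 0.494).

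Among the named interneuron subclasses, Sema3c was highest in Lamp5 (221 ± 71.0 CPM, n = 16 mice) and Cnr1/Cck interneurons (161 ± 55.0 CPM, n = 19), whose ranges overlapped. Unnamed subclusters have no value here, among them 793 and 470 nuclei closest to Vip and 594 closest to Pvalb interneurons. Mice 1 to 4 gave 88.9% of the 470 and 91.9% of the 594 nuclei. Sst and Pvalb interneurons had 12.1 ± 12.4 (n = 15) and 5.15 ± 7.52 CPM (n = 16), with ranges below those of the first pair. Sema3a showed another order, with 48.1 ± 20.9 CPM in Sst and 2.28 ± 3.92 CPM in Cnr1/Cck interneurons. Nrp2 was 153 ± 34.0 CPM in Cnr1/Cck and 39.6 ± 13.8 CPM in Pvalb interneurons, whereas Plxna4 was 772 ± 78.0 CPM in Pvalb and 246 ± 61.6 CPM in Lamp5 interneurons.

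Plxnb3, a receptor of Sema5a located on chromosome X at 73757090 to 73772514 (mm10, plus strand), separated the states in oligodendrocytes. Awake mice had 112 to 199 CPM (median 141), isoflurane mice 46.8 to 92.4 CPM (median 78.5) and ketamine mice 61.9, 77.2, 85.0 and 85.8 CPM. Every awake mouse lay above every anesthetized mouse. Plxnb3 fell by 1.02 ± 0.17 under isoflurane (adjusted p = 0.000447), a call that held in all 28 alternative settings and omissions, and by 0.91 ± 0.19 under ketamine (adjusted p = 0.00926, but 0.0892 without mouse 25 and 0.073 without mouse 27). The fall was called in both labelled genotypes under isoflurane, by 0.95 ± 0.24 in WT (adjusted p = 0.0259) and 1.08 ± 0.24 in fAD mice (adjusted p = 0.0159). Its ligand gene Sema5a was called in oligodendrocyte precursors under ketamine only, with 248 to 497 CPM awake and 184, 208, 238 and 303 CPM under ketamine (-0.72 ± 0.18, adjusted p = 0.0369, lost without any 1 of 9 mice, 0.173 without mouse 27, and -0.19 with runs as a block).

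Plxna4 was called lower in pyramidal neurons under isoflurane and in DG granule neurons under ketamine. In CA1 pyramidal neurons awake mice had 512 to 875 CPM (median 645) and isoflurane mice 319 to 606 CPM (median 487), 5 of 7 of them below every awake mouse. That difference was -0.42 ± 0.10 (adjusted p = 0.0141, but 0.0926 without mouse 2 and 0.0619 without mouse 3). In CA3 pyramidal neurons the ranges of 529 to 885 and 370 to 759 CPM overlapped, with a difference of -0.40 ± 0.09 (adjusted p = 0.019, lost without any 1 of 4 mice, 0.108 without mouse 2). DG granule neurons had 1038 to 1879 CPM awake and 1107, 1145, 1170 and 1212 CPM under ketamine, within the awake range, and a fitted fall of 0.38 ± 0.10 (adjusted p = 0.0148, 0.0865 without mouse 27 and 0.0631 without mouse 25). Plxna2, a receptor of class 6 ligands, was lower by 0.37 ± 0.11 in ketamine DG granule neurons (adjusted p = 0.0297, lost without any 1 of 4 mice, 0.162 without mouse 27), with 122 to 161 CPM awake and 96.3, 111, 125 and 127 CPM under ketamine.

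**Figure D4:**
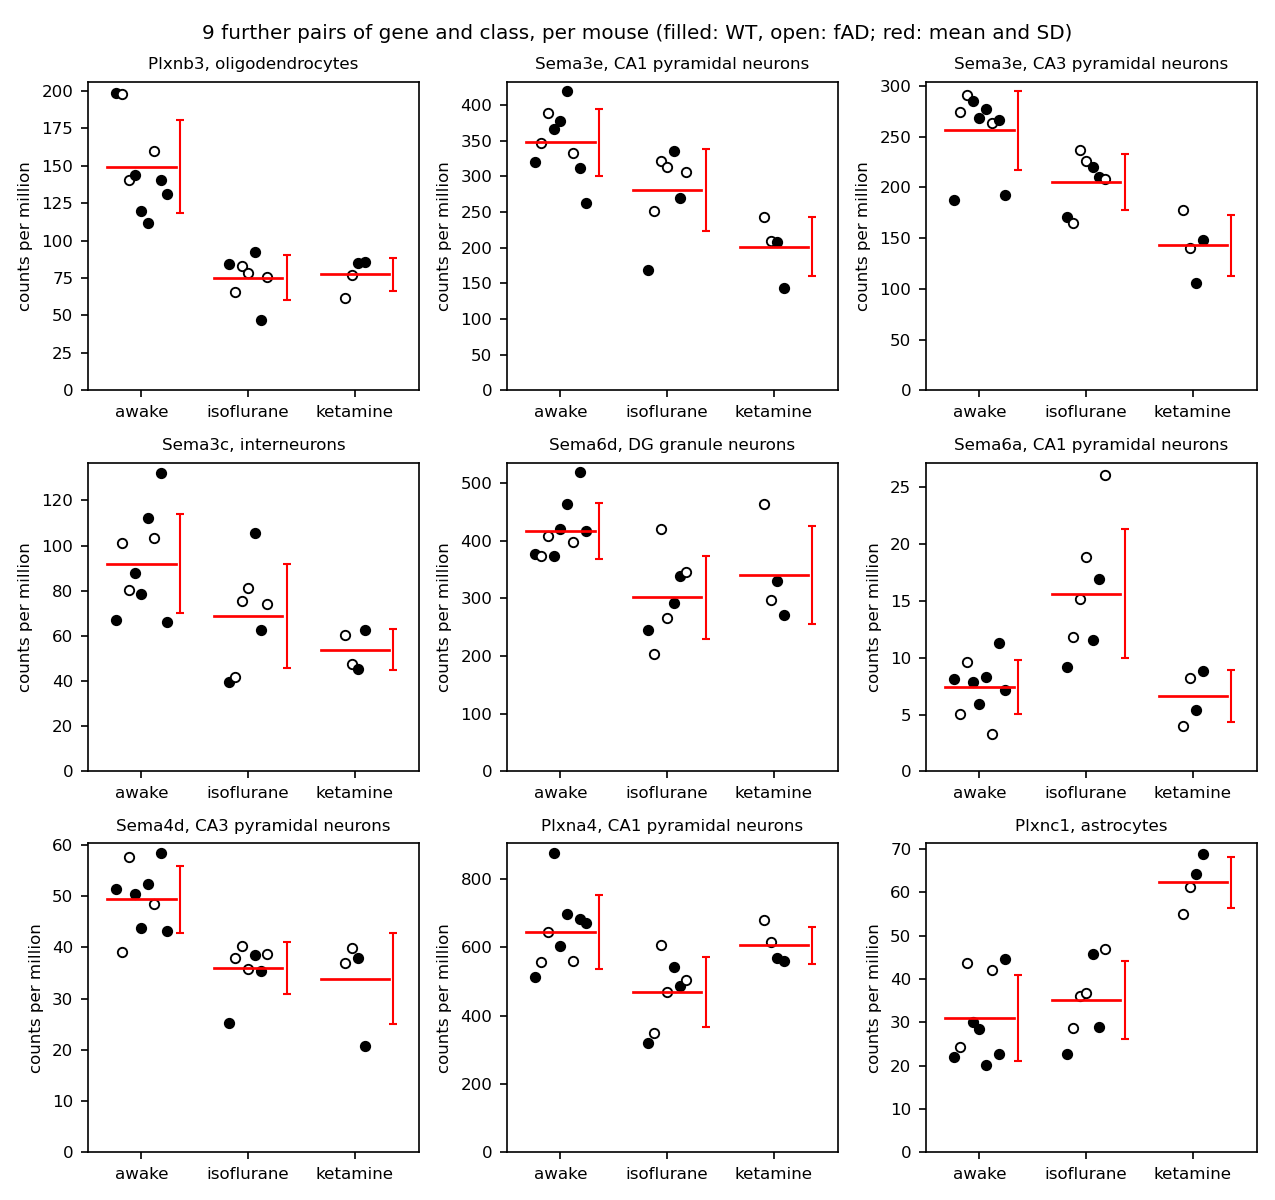
CPM per mouse (vertical axes, from 0) of 9 further pairs of gene and cell class for awake, isoflurane and ketamine mice, with filled points for WT, open points for fAD as labelled, and red lines for mean and SD. Plxnb3 in oligodendrocytes does not overlap between awake (112 to 199 CPM) and anesthetized mice, Sema6a in CA1 pyramidal neurons is high under isoflurane only, and Plxnc1 in astrocytes is high under ketamine only.

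The membrane-bound Sema6d fell in 3 classes under isoflurane. In DG granule neurons it was 373 to 520 CPM (median 409) awake and 204 to 421 CPM (median 292) under isoflurane, 6 of 7 mice below every awake mouse. The differences were -0.48 ± 0.11 in DG granule neurons (adjusted p = 0.016, lost without any 1 of 3 mice, 0.0852 without mouse 2), -0.47 ± 0.13 in oligodendrocytes (adjusted p = 0.024, lost without any 1 of 5 mice, 0.122 without mouse 2) and -0.38 ± 0.11 in CA1 pyramidal neurons (adjusted p = 0.0346, lost without any 1 of 11 mice, 0.183 without mouse 2). Oligodendrocytes had 225 to 411 CPM awake and 126 to 282 CPM under isoflurane, and CA1 pyramidal neurons 45.9 to 83.5 and 32.5 to 64.8 CPM, with overlapping ranges. No Sema6d difference was called under ketamine.

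Sema6a, a membrane-bound ligand of Plxna2 and Plxna4, moved in opposite directions in 2 classes. In CA1 pyramidal neurons, where it is low, awake mice had 3.31 to 11.3 CPM (median 7.85), isoflurane mice 9.14 to 26.0 CPM (median 15.2) and ketamine mice 3.99, 5.39, 8.20 and 8.85 CPM, on 6 to 92 UMIs per mouse. Of the 7 isoflurane mice 6 lay above every awake mouse. It rose by 0.97 ± 0.21 under isoflurane (adjusted p = 0.00799), the only higher call there, and ketamine was lower than isoflurane by -1.30 ± 0.32 (adjusted p = 0.0188, lost without any 1 of 3 mice, 0.14 without mouse 27). Without mice 11, 14 and 17 the isoflurane adjusted p was 0.178, in a range from 0.00041 to 0.178 over the alternatives. Interneurons had 53.6 to 99.1 CPM awake and 38.7 to 66.2 CPM under isoflurane, a fall of 0.52 ± 0.14 (adjusted p = 0.0334, lost without any 1 of 8 mice, 0.15 without mouse 3). The contrast between the classes was not tested. The CA1 level is near that left by free RNA: Sema6a is highest in oligodendrocytes, whose 10 markers summed to 125 to 460 CPM in awake, 140 to 356 CPM in isoflurane and 75.4 to 161 CPM in ketamine CA1 pyramidal neurons, with none absent. Their part in the Sema6a result was not tested.

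The class 4 semaphorins called were Sema4a, Sema4b and Sema4d. Sema4d in CA3 pyramidal neurons was 39.0 to 58.4 CPM awake, 25.2 to 40.3 CPM under isoflurane and 20.8, 37.0, 37.9 and 39.9 CPM under ketamine. Its falls were 0.49 ± 0.12 (adjusted p = 0.0352, lost without any 1 of 10 mice, 0.125 without mouse 3) and 0.60 ± 0.17 (adjusted p = 0.0422, lost without any 1 of 8 mice, 0.208 without mouse 28, and -0.34 with runs as a block). In DG granule neurons Sema4d was 60.7 to 86.8 CPM awake and 45, 45.2, 47.8 and 63.4 CPM under ketamine, lower by 0.53 ± 0.13 (adjusted p = 0.0108, 0.0791 without mouse 27 and 0.0566 without mouse 26).

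Sema4b in DG granule neurons had 12.9 to 26.8 CPM awake and 8.46, 13.0, 13.7 and 17.4 CPM under ketamine. It fell by 0.58 ± 0.19 (adjusted p = 0.0443, lost without any 1 of 13 mice, 0.218 without mouse 27), and with runs of mouse numbers as a block the difference was 0.02. Sema4a in CA1 pyramidal neurons was 10.2 to 20.3 CPM awake and 5.68 to 12.6 CPM under isoflurane, lower by 0.68 ± 0.16 (adjusted p = 0.0107, and 0.06 without mouse 2).

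The other 2 higher calls under ketamine were in astrocytes. Plxnc1 was 20.1 to 44.6 CPM (median 28.5) in awake, 22.7 to 46.9 CPM (median 36) in isoflurane and 54.9, 61.2, 64.2 and 68.8 CPM in ketamine mice. All ketamine mice lay above all others. The rise was 0.84 ± 0.19 over awake (adjusted p = 0.0103, but 0.0534 without mouse 26 and 0.051 without mouse 27) and 0.69 ± 0.20 over isoflurane mice (adjusted p = 0.0373, lost without any 1 of 8 mice, 0.131 without mouse 26). With runs as a block these were 0.18 and -0.08. Sema6b, on 1 to 27 UMIs per mouse, was 2.30 to 10.1 CPM awake and 12.4, 15.4, 16.9 and 25.3 CPM under ketamine, without overlap, and rose by 1.29 ± 0.33 (adjusted p = 0.0214, lost without any 1 of 3 mice, 0.197 without mouse 28, and 2.88 with runs as a block, not called). Fibroblast markers summed to 177 to 751 CPM in ketamine astrocytes, 77.2 to 279 CPM in awake and 63.9 to 256 CPM in isoflurane ones, with none of the 9 markers absent. Fibroblasts made up 10.1 and 9.27% of the nuclei in WT-Ketamine and fAD-Ketamine and 0.985 to 3.78% in the other groups, and their part in the Plxnc1 and Sema6b results was not tested. Fibroblasts were the class with the lowest mean of Sema6b, 4.64 ± 4.53 CPM (n = 18).

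Between the anesthetics, 6 of 163 pairs were called against 4.58% of all pairs, namely Nrp1 in CA1 pyramidal and DG granule neurons, Sema3e in CA1 and CA3 pyramidal neurons and Sema6a in CA1 pyramidal neurons (lower under ketamine) and Plxnc1 in astrocytes (higher). The median difference over the 163 pairs was 0.00, and 19.0% had an unadjusted p below 0.05, against 21.6% of all pairs. The count of calls fell to 1 without mouse 25, 2 without mouse 27 or WT-GA mouse 18, and 3 without mouse 26. It was 5 without mice 11, 14 and 17. Over all pairs the share was then between 0.525% (without mouse 27) and 2.16% (without mouse 26) for the single omissions and 4.46% without mice 11, 14 and 17. No isoflurane mouse shared the run of the ketamine mice, and with runs as a block none of the 6 calls remained, when 6 of 98495 pairs of any gene were called.

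For genotype, averaged over awake and isoflurane mice, edgeR called 0 of 156 pairs against 0.0% of all pairs, and DESeq2 also called 0. At an unadjusted p below 0.05 there were 8 pairs (5.13%, against 2.89% of all pairs). Without the low-count filter 1 pair passed, Sema3c in astrocytes, as did 142 of 212692 pairs of any gene. With the filter the smallest p also belonged to Sema3c in astrocytes (0.00344), 1.69 ± 0.50 higher in mice labelled fAD (adjusted p = 1), and the median over the 156 pairs was 0.08 against 0.00 for all. Without mice 11, 14 and 17 the count was also 0, when 14 of 97674 pairs of any gene were called. Endothelial cells, the class with the highest Sema3c, made up 1.49% of nuclei in fAD-Awake and 0.378% in WT-Awake. The shares were 0.463% in fAD-GA and 0.311% in WT-GA. Of the 804 endothelial nuclei, 322 came from fAD-Awake mouse 10. Their part in the Sema3c result in astrocytes was not tested.

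The question whether the response to isoflurane depended on genotype was tested by the interaction term. No pair of the 156 passed in edgeR (0.00107% of all pairs) or in DESeq2, and 8 (5.13%) had an unadjusted p below 0.05, against 5.62% of all pairs. Without mice 11, 14 and 17 the interaction count was also 0, against 14 of 97674 pairs of any gene. Within the labelled genotypes, 4 pairs were called in WT mice (against 1.42% of all pairs) and 5 in fAD mice (against 1.37%). The WT calls were Nrp1 in astrocytes and in microglia and macrophages, Plxnb3 in oligodendrocytes and Sema3a in DG granule neurons. The fAD calls were Nrp1 in CA1 pyramidal neurons and in subicular and cortical excitatory neurons, Plxnb3 in oligodendrocytes, and Sema4a and Sema6a in CA1 pyramidal neurons.

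Sema3a in DG granule neurons was the 1 member called in a single genotype and in no pooled comparison. WT-Awake mice had 2.03 to 7.61 CPM and WT-GA mice 1.27 to 1.70 CPM, without overlap, a fall of 1.89 ± 0.36 (adjusted p = 0.0329), while fAD-Awake and fAD-GA mice had 1.57 to 3.63 and 2.03 to 4.47 CPM (0.10 ± 0.36, adjusted p = 0.953). Its interaction was 1.98 ± 0.50 with an adjusted p of 0.852, on 2 to 39 UMIs per mouse. Fibroblasts hold most Sema3a, and their markers summed to 3.83 to 118 CPM in awake and 6.10 to 100.2 CPM in isoflurane DG granule neurons, a part in the result that was not tested.

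Genes that act beside or below these receptors were counted from fixed lists, chosen with earlier results of these data known. Of 80 pairs of co-receptors and partners, 10 were called under isoflurane (9 lower), 6 of 85 under ketamine (5 lower) and 3 of 85 between the anesthetics, all higher under ketamine. These shares were 12.5, 7.06 and 3.53%, against 6.33, 8.18 and 4.58% of all pairs, so the ketamine shares lay below those of all pairs. The list medians were -0.07, 0.00 and 0.07 against 0.01, -0.03 and -0.03 for all pairs. The neuropilin ligand gene Vegfa fell by 1.75 ± 0.26 in oligodendrocyte precursors under isoflurane (adjusted p = 0.00022), and it was higher by 0.96 ± 0.23 in astrocytes under ketamine (adjusted p = 0.013, 0.0984 without mouse 28, and 0.04 with runs as a block). The adhesion co-receptor gene Nrcam was lower by 0.65 ± 0.13 in astrocytes under isoflurane (adjusted p = 0.0038) and by 0.45 ± 0.10 in CA1 pyramidal neurons under ketamine (adjusted p = 0.00812, and 0.0589 without mouse 27). Robo1, a Slit receptor, fell by 1.28 ± 0.23 in ketamine astrocytes (adjusted p = 0.00222), and the integrin gene Itga1 rose by 1.14 ± 0.31 in isoflurane CA1 pyramidal neurons (adjusted p = 0.0247, lost without any 1 of 5 mice, 0.0944 without mouse 2).

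Of 235 pairs of intracellular effectors, 16 were called under isoflurane (12 lower), 15 of 238 under ketamine (11 lower) and 7 of 238 between the anesthetics (3 lower under ketamine). Their shares of 6.81, 6.30 and 2.94% lay near or below the 6.33, 8.18 and 4.58% of all pairs, so the counts set this list apart in no comparison, and the genes named are single calls. Mical2, which encodes an actin-oxidizing enzyme, fell by 0.86 ± 0.12 in subicular and cortical excitatory neurons (adjusted p = 0.000214) and 0.69 ± 0.11 in CA1 pyramidal neurons under isoflurane (adjusted p = 0.000582), and by 0.90 ± 0.12 in CA1 pyramidal neurons under ketamine (adjusted p = 9.8e-05). In isoflurane astrocytes Mical2 was instead higher, by 0.46 ± 0.12 (adjusted p = 0.0254, lost without any 1 of 6 mice, 0.0942 without mouse 19). Farp1, a Rac-activating exchange factor, rose by 0.93 ± 0.19 in isoflurane oligodendrocytes (adjusted p = 0.00212). Flna, the actin cross-linker filamin A, rose in astrocytes under both anesthetics, by 1.22 ± 0.25 and 1.37 ± 0.31 (adjusted p = 0.00504 and 0.0107). The ketamine call of Flna was lost without mouse 25 (adjusted p = 0.0624), and with runs as a block the difference was 0.77. Fibroblast markers summed to 177 to 751 CPM in the same ketamine astrocytes and 77.2 to 279 CPM in awake ones, and their part in the Flna result was not tested. With runs as a block neither list had a call under ketamine or between the anesthetics. Without mice 1 to 4, 4 effector pairs and 2 co-receptor pairs were called under isoflurane, and the calls of Flna, Farp1 and Mical2 in astrocytes were among those lost, as were those of Vegfa, Nrcam and Itga1. Neither list had a call for genotype or its interaction with isoflurane.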

How the data were processed

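The authors deposited raw UMI counts per gene and nucleus for each of 20 mice. Per the labels, hippocampal nuclei were profiled with a 10x 3' kit; the submitters' processing notes name Cell Ranger 5.0.0 and mm10, and the study's methods state intron-inclusive counting, ambient RNA correction and removal of nuclei under 200 genes (the lowest in the files was 229). Counts were whole numbers, and whether ambient correction had been applied to them is not given in the sources used here. The authors' cell annotation was not used here.

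Doublets were scored per mouse by mixing pairs of nuclei, and 10224 nuclei (6.36%) were marked. All nuclei, marked ones included, were clustered (2000 variable genes without the described genes, 30 principal components, Leiden resolution 1, leidenalg 0.10.2) into 45 clusters. Marked nuclei were left out when marker levels were computed and counts summed, but they took part in forming the clusters. Of the clusters, 12 were left out as doublets and 7 stayed unnamed, leaving 130400 unmarked nuclei in classes named by markers. The cutoffs for a cluster's doublet share and marker score were set after the clusters were seen. Some clusters came mostly from mice 1 to 4. These mice gave 88.1% of the nuclei of 1 cluster of DG granule neurons and 86.5% of 1 of CA1 pyramidal neurons. Their share was 94.1% in 1 cluster of oligodendrocytes and 80.3% in 1 of astrocytes. Each was joined with the other clusters of its class. Unnamed nuclei included 6865 closest to subicular and cortical excitatory neurons, against 4618 in the named class, and 4558 closest to CA1 pyramidal neurons. Because names were rebuilt, a difference from the study may come from them.

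Counts were summed per mouse and class (at least 30 nuclei) and tested with edgeR 4.0.16 (TMM, filterByExpr, glmQLFit, glmQLFTest) in R 4.3.3. Genes were named if called in any comparison, or if among the 3 per role with the largest ratio of highest to next class mean, and pathway genes if called, at most 3 per direction and comparison. The members and lists were chosen with earlier results of these data known. P-values weigh a fitted difference against the spread between mice that is left after groups and the block, or the term for mice 1 to 4, are fitted. Alternatives were DESeq2 1.42.0, RLE factors, no filter, other blocks, other clusterings, doublets kept, at least 100 nuclei and leaving out mice. The fit was tested on simulated data: in CA1 pyramidal neurons (12893 genes) it recovered 23.2% of 1.5-fold and 56.8% of 2-fold changes for isoflurane, and 9.28% and 36.1% for ketamine (13104 genes). Both simulations used the spread between mice of the ketamine fit. Its coefficient of variation in CA1 pyramidal neurons was 0.210, against 0.158 in the isoflurane fit. The isoflurane recovery thus describes noisier data than that test used. Samples were grouped by genotype and treatment labels. The study's methods state that tissue was processed in batches of 4 holding each awake and isoflurane group. Which mice shared one is not given in the labels, and runs of mouse numbers stand in for them. As labelled, run 10 to 13 held no WT-GA mouse and run 18 to 20 no fAD-Awake mouse, so these runs do not match such batches. Some items are not reported here.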

Additional observations from a re-analysis of the deposited data

Results flagged for a closer look

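In 65 sets of 4 to 6 mice of 1 group, for the 33 pairs of gene and class called in any comparison, Dixon's test at the 95% level set 3 mice apart (4.615%, where chance gives about 5%). Nrp1 in astrocytes was 88.6 CPM in fAD-GA mouse 11, and the nearest of the 4 mice had 49.1 CPM. Mouse 11 is also a mouse whose Prnp level went against its label. Plxnb3 in oligodendrocytes was 199 CPM in WT-Awake mouse 1, with 144 CPM in the nearest of the 6 mice. Sema3e in subicular and cortical excitatory neurons was 83.4 CPM in fAD-GA mouse 4, with 57.4 CPM in the nearest of the 4 mice.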

How the results depend on the processing

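Of the 21 isoflurane calls, 7 remained without a block for runs of mouse numbers (3.37% of all pairs called) and 3 without mice 1 to 4 (Nrp1 in astrocytes and in microglia and macrophages, and Plxnb3 in oligodendrocytes), when 1302 of 91529 pairs of any gene were called (1.42%). Without mice 11, 14 and 17, an alternative chosen after seeing the data, 10 pairs were called, 9 of them among the 21. That omission also removed the comparison of isoflurane with awake mice within runs 10 to 13 and 14 to 17. Leaving out single mice gave 8 to 26 calls for isoflurane, 8 to 21 for ketamine, 1 to 7 for ketamine against isoflurane, and 0 to 0 for genotype and for the interaction. Without the low-count filter 1 genotype pair was called, Sema3c in astrocytes (142 of 212692 pairs of any gene). The 19 ketamine calls became 12 without a term for mice 1 to 4 (6.37% of all pairs called), 10 without mice 1 to 4 and 1 with runs as a block, when 50 of 98495 pairs of any gene were called. With runs as a block the 6 calls between anesthetics became 0, and Sema4b in DG granule neurons (0.0174, ketamine against awake) and Plxnc1 in astrocytes (-0.0754, ketamine against isoflurane) changed sign. The cause was not tested. All other settings, DESeq2 included (20, 21 and 6 calls), gave counts within 1.5 times. The class with the highest mean was the same for 26 to 31 of 31 genes. Power for 1.5-fold changes was low in counts simulated with the wider spread of the ketamine fit (7.78% recovered for isoflurane in microglia and macrophages, 3342 genes). A missed call does not show a lack of change.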
